A study of Mus musculus with 6 samples.

Results

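The Schlafen genes are a mouse gene family on chromosome 11, and 7 of them, Slfn1, Slfn2, Slfn3, Slfn4, Slfn5, Slfn8 and Slfn9, were followed here by their gene symbols. They are 7 of 54532 genes in the count table, and all 7 passed the filter on low counts that left 13480 genes for testing. Messenger RNA was sequenced from bone marrow cells selected with CD8 magnetic beads, taken from female CByB6F1 mice aged 2 to 5 months with immune bone marrow failure, where the blood-forming cells are destroyed by T cells. Ruxolitinib, which blocks the kinases JAK1 and JAK2, had been given to the mice of 3 libraries (pools 1 to 3). The mice of the other 3 libraries (pools 4 to 6) had the same disease and were untreated controls. Each library pooled the cells of 2 to 3 mice of 1 group, so a library is a biological sample but not a single animal. CByB6F1 is an F1 hybrid strain, and its genome differs from the reference genome in part. Dose and treatment time were not given in the sources used here.

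Schlafen proteins are known as regulators of cell growth and of RNA, and several of their genes are induced by interferon, whose receptors signal through JAK kinases and STAT factors. The family is divided by protein length. Slfn1 and Slfn2 are the short members and have been studied mainly in thymocytes and T cells, Slfn3 and Slfn4 are intermediate, and Slfn5, Slfn8 and Slfn9 are long members that carry a helicase-like part. Mice with a faulty Slfn2 cannot keep their T cells and monocytes at rest, and the protein also shields transfer RNA from cleavage in activated T cells.

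The libraries held 13829808 to 14139605 counted reads in the ruxolitinib group and 15740514 to 17708196 in controls. Although both groups were selected with CD8 beads, the summed level of 17 genes that define CD8 T cells was 1892 to 5415 CPM in ruxolitinib pools, against 10632 to 12909 CPM in control pools. Of these 17 genes 16 fell, beside 25.3% of all genes tested. Marker genes of red cells, macrophages, granulocytes and B cells were higher in the ruxolitinib pools. In such bulk samples fewer cells of a type and less RNA per cell cannot be told apart. CPM here is a gene's count per 1000000 reads in tested genes, with the library size adjusted by edgeR's TMM factor. Log2 fold changes (± SE) have ruxolitinib on top and control below. Unless another tool is named, adjusted p-values come from edgeR's quasi-likelihood test, and a gene is called changed at adjusted p under 0.05.

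The family did not move as a unit. The short members Slfn1 and Slfn2 fell with ruxolitinib, the intermediate member Slfn4 rose, and Slfn3, Slfn5, Slfn8 and Slfn9 did not pass the threshold. That is 3 of 7 members called (42.9%), beside 55.2% of all genes tested. By direction, 2 members were lower, where 25.3% of all genes were lower, and 1 was higher, where 29.9% of all genes were higher. The CPM values of the groups did not overlap for 5 of the 7 members (71.4%), beside 66.0% of all genes. So the share of members called was no larger than in the whole table, and the members are described one by one. Their median log2 fold change was -0.50, and that of all genes was 0.03.

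Slfn1, whose forced expression in mouse thymocytes stops their growth, had 28.5, 23.4 and 18.9 CPM in the ruxolitinib pools 1 to 3, against 84.4, 95.8 and 84.1 CPM in the control pools 4 to 6. Every ruxolitinib pool lay below every control pool, and the controls were close to each other. The log2 fold change was -1.90 ± 0.22 (adjusted p = 0.000119), which is 3.73-fold lower. Slfn1 lies at 83116849 to 83122670 on the plus strand of chromosome 11 (mm10, positions as deposited). Slfn2, the quiescence gene, was the most abundant member by far. It had 126, 122 and 161 CPM in ruxolitinib pools, against 321, 362 and 179 CPM in control pools. The groups did not overlap, but control pool 6 lay near the highest ruxolitinib pool. In the same pools the sum of the 17 CD8 identity genes was 1892, 2394 and 5415 CPM with ruxolitinib, against 12886, 12909 and 10632 CPM in controls. Within the ruxolitinib group this sum was highest in pool 3, where Slfn1 was lowest and Slfn2 highest. The part of CD8 T cells in either fall was not tested. Slfn2 fell by 1.08 ± 0.29 on the log2 scale (adjusted p = 0.0100), or 2.11-fold, with a 95% interval of -1.71 to -0.44. Leaving out 1 pool at a time kept the call but brought it close to the threshold. The value was -0.84 without control pool 5 (adjusted p = 0.0481), -1.02 without ruxolitinib pool 1 (adjusted p = 0.0483), -1.002 without ruxolitinib pool 2 (adjusted p = 0.0444) and -1.32 without control pool 6 (adjusted p = 0.000803).

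Slfn4, which in mice is a gene of monocytes, macrophages and other myeloid cells, moved the other way. It had 26.1, 13.1 and 6.005 CPM in ruxolitinib pools, against 2.49, 1.11 and 2.62 CPM in control pools. All 3 ruxolitinib pools were above all controls, and pool 1 was far above pool 3. The log2 fold change was 2.85 ± 0.55 (adjusted p = 0.00192), or 7.21-fold, and 2.19 without ruxolitinib pool 1 (adjusted p = 0.0114). In the same pools the summed level of 15 granulocyte genes was 20918, 17036 and 8981 CPM with ruxolitinib, against 6091, 1576 and 4361 CPM in controls. The sum of 16 monocyte and macrophage genes was 10730, 10918 and 6868 CPM with ruxolitinib, against 1470, 1124 and 1366 CPM in controls. Ruxolitinib pool 3 had the lowest Slfn4 level and the lowest sum of both lists within its group. The sums of the red cell, B cell, natural killer and platelet lists were also lowest in that pool. Those of the dendritic cell and stromal lists were lowest in ruxolitinib pool 1. The natural killer sum was mostly Tyrobp and Fcer1g, at 214 and 202 of 590 CPM in ruxolitinib pool 3. Klre1 of the same list went the other way, with 2.05, 2.28 and 5.12 CPM in ruxolitinib pools 1 to 3. The part of any of these cells in the Slfn4 value was not tested. Slfn3, the other intermediate member, which in mice and rats has been studied in the gut lining, was the least abundant member by CPM in the ruxolitinib pools. It had 2.78, 2.28 and 3.03 CPM there, against 2.93, 2.49 and 6.04 CPM in control pools. Only control pool 6 stood out, the groups overlapped and the log2 fold change of -0.50 ± 0.42 did not pass (adjusted p = 0.340). The 95% interval of -1.45 to 0.45 leaves room for a change in either direction.

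None of the listed long members passed the threshold. Slfn5, whose human counterpart acts in the nucleus on interferon-regulated transcription, had 16.0, 9.43 and 10.5 CPM in ruxolitinib pools, against 9.97, 8.37 and 18.6 CPM in control pools. The groups overlapped throughout, with the highest value in control pool 6, and the log2 fold change was -0.04 ± 0.35 (adjusted p = 0.933, 95% interval -0.82 to 0.75). Its sign was not stable, and without control pool 6 the value was 0.38. Slfn8 had 8.12, 4.49 and 9.67 CPM in ruxolitinib pools, against 15.6, 11.8 and 11.6 CPM in control pools. The groups did not overlap, and the log2 fold change of -0.80 ± 0.32 missed the threshold narrowly (adjusted p = 0.0558). It passed with DESeq2 (adjusted p = 0.0434) and limma-voom (adjusted p = 0.0429). Slfn9, the closest relative of Slfn8, had 12, 10.04 and 10.1 CPM in ruxolitinib pools, against 8.03, 8.11 and 2.99 CPM in control pools. Here too the groups did not overlap, with ruxolitinib higher, and the value of 0.75 ± 0.38 did not pass (adjusted p = 0.117). The neighbouring and closely related Slfn8 and Slfn9 thus had values of opposite sign, neither of them called. The plot of pool values shows that control pool 6 had the lowest Slfn2 and Slfn9 and the highest Slfn3 and Slfn5 of its group.

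**Figure D1:**
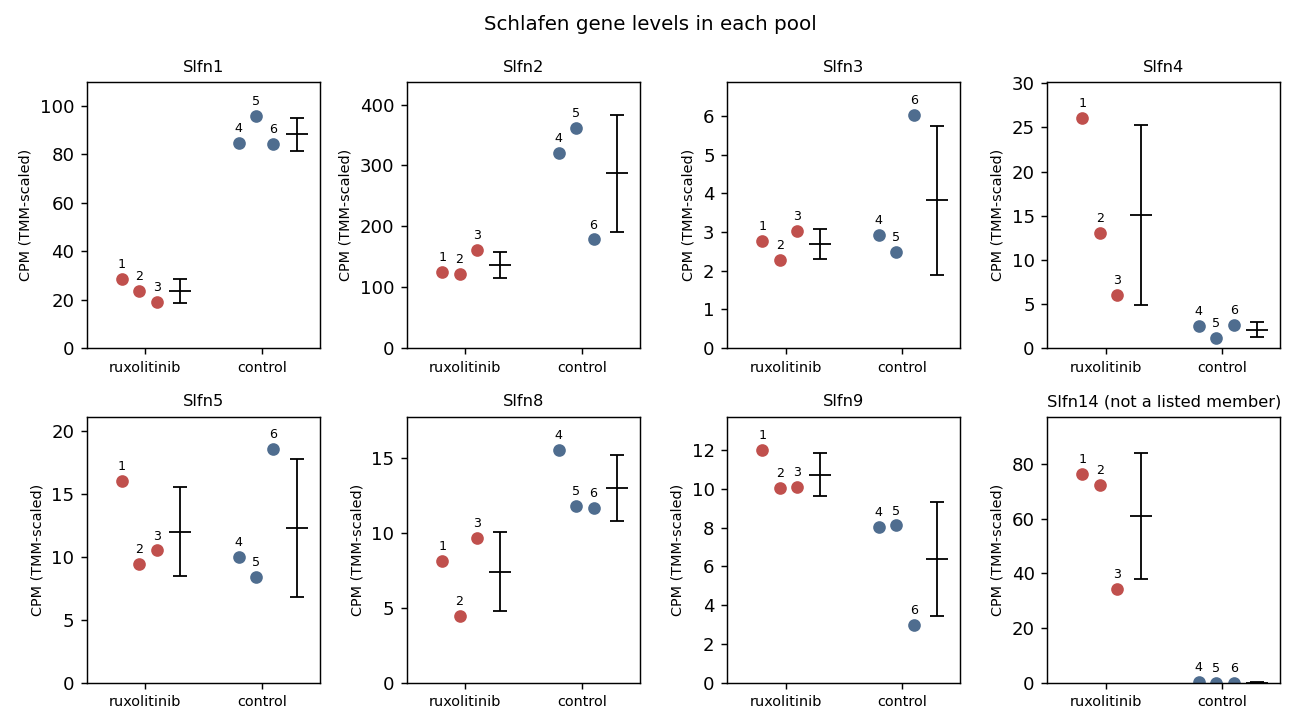
CPM of each listed Schlafen gene and of Slfn14 in every pool (points, numbered by pool), with the mean and SD of each group of 3 beside them (bars) and ruxolitinib pools to the left. Slfn1 and Slfn2 lie lower in all ruxolitinib pools, Slfn4 lies higher, and for Slfn3 and Slfn5 the groups overlap.

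Levels of different genes were compared per kilobase of gene length, since longer transcripts collect more reads. In ruxolitinib pools Slfn2 had 81.9 ± 12.9 CPM per kb and Slfn1 12.7 ± 2.59, followed by Slfn4 (3.80 ± 2.57), Slfn5 (1.89 ± 0.56), Slfn8 (1.82 ± 0.65), Slfn9 (1.80 ± 0.19) and Slfn3 (0.79 ± 0.11), each as mean ± SD of 3 pools. In control pools the order began in the same way, with Slfn2 at 173 ± 57.8 CPM per kb and Slfn1 at 47.3 ± 3.56. Slfn8 (3.18 ± 0.54), Slfn5 (1.94 ± 0.87), Slfn3 (1.12 ± 0.57), Slfn9 (1.07 ± 0.49) and Slfn4 (0.52 ± 0.21) came after them. The short members stood above the others in both groups by more than the spread between pools. With ruxolitinib the pool values of Slfn4, Slfn5, Slfn8 and Slfn9 overlapped between neighbours in this order, and Slfn3 lay below them in every pool. In controls each member from Slfn8 down to Slfn4 overlapped with its neighbour in the order. Slfn4 came next after the short members with ruxolitinib and last in controls.

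As a share of the length-scaled Schlafen reads, Slfn2 made up 78.0 ± 6.0% in ruxolitinib pools and 74.6 ± 6.95% in control pools, and the shares of the groups overlapped. Slfn1 took 12.3 ± 3.04% with ruxolitinib, against 21.7 ± 5.47% in controls. Slfn4 took 3.70 ± 2.49% with ruxolitinib, against 0.256 ± 0.154% in controls, and Slfn9 took 1.73 ± 0.228% with ruxolitinib, against 0.450 ± 0.124% in controls. The remaining members, Slfn3, Slfn5 and Slfn8, held between 0.571% and 1.81% on average in either group.

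**Figure D2:**
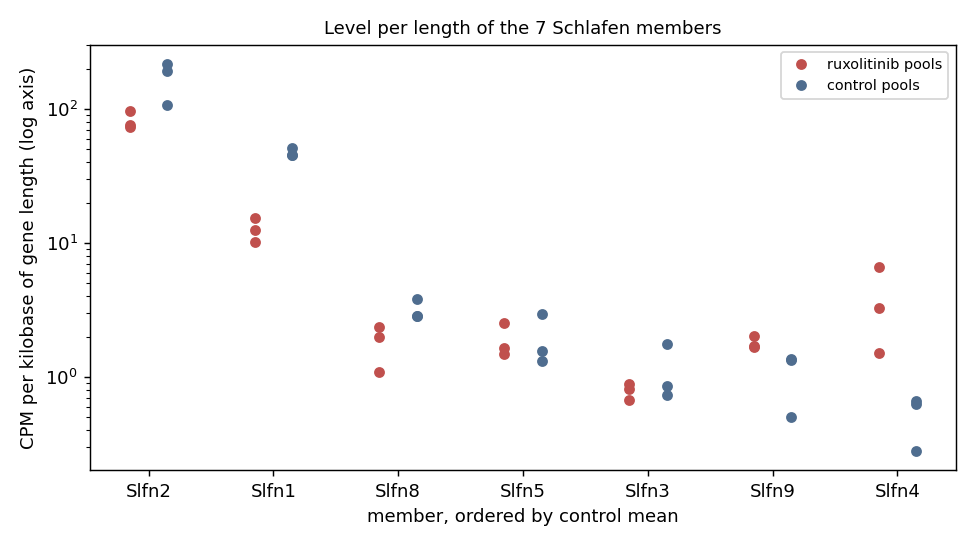
CPM per kilobase of gene length on a log axis for the 7 members, ordered by their control mean, with 1 point for each of 3 ruxolitinib pools (left) and 3 control pools (right). Slfn2 and Slfn1 lie above all other members in both groups, and Slfn4 is last in controls and next after them with ruxolitinib.

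Because the ratio of 2 members within a library does not depend on how the library is scaled, members were also set against each other in all 21 pairs, with 0.5 added to each count. In 14 pairs the log2 ratios of the groups did not overlap. Pairs of other genes were not counted, and 66.0% of all single genes had CPM values without overlap. The 21 pairs are made from the same 7 genes, so they are not independent. Slfn1 against Slfn4 moved most, with a mean log2 ratio of 0.87 ± 0.76 in ruxolitinib pools and 5.48 ± 0.79 in control pools (SD, n = 3 each, exact two-sided permutation p = 0.1 and adjusted p = 0.15 over the 21 pairs). That p is the smallest that 3 pools against 3 can give, so no pair could pass. Slfn1 against Slfn2 had a log2 ratio of -2.54 ± 0.49 with ruxolitinib and -1.64 ± 0.48 in controls, without overlap. Slfn8 against Slfn9 had -0.59 ± 0.55 with ruxolitinib and 1.15 ± 0.73 in controls, also without overlap. Slfn2 against Slfn8 was 4.25 ± 0.44 with ruxolitinib and 4.41 ± 0.50 in controls, a difference of -0.16 that is within the spread between pools. The other 6 overlapping pairs were Slfn2 with Slfn3 and Slfn5, Slfn8 with Slfn3 and Slfn5, and Slfn9 with Slfn4 and Slfn5.

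Since the CD8 T cell genes were lower with ruxolitinib, the libraries were also scaled to the geometric mean of the 17 CD8 identity genes, which gives each gene relative to them. This scaling moved the median of all genes by 1.97 log2 units. Under it the median of all genes tested was 2.00, and 71.0% of them were called, 70.5% higher and 0.467% lower. Of the 7 members 3 were called, all higher (42.9%), and their median was 1.35. Slfn1 was at 0.16 ± 0.57 (adjusted p = 0.806) and Slfn2 at 0.88 ± 0.57 (adjusted p = 0.153), so neither was called relative to the CD8 identity genes. Few genes of any kind stayed lower under this scaling, and the cause of either fall was not tested. Slfn4 was at 5.04 ± 0.70 (adjusted p = 8.54e-12), Slfn9 at 2.81 ± 0.65 (adjusted p = 4.82e-05) and Slfn5 at 1.94 ± 0.61 (adjusted p = 0.00304). The values of Slfn3 (1.35 ± 0.73, adjusted p = 0.0837) and Slfn8 (1.08 ± 0.62, adjusted p = 0.107) did not pass. Though Slfn5 was called, its identity-scaled groups overlapped, with 10.7 in ruxolitinib pool 3 and 11.5 in control pool 6. Those of Slfn1, Slfn2 and Slfn3 overlapped too, while those of Slfn4, Slfn8 and Slfn9 did not. The share of all genes without overlap was not counted under this scaling. Set against the 2.00 of all genes, Slfn1, Slfn2, Slfn3 and Slfn8 lay below it, Slfn5 lay near it, and Slfn9 and Slfn4 lay above it. The identity-scaled level of Slfn1 was 81.0, 55.6 and 19.3 in ruxolitinib pools, against 41.0, 46.5 and 52.1 in control pools. Pools 1 and 2 thus lay above all controls and pool 3 below them.

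**Figure D3:**
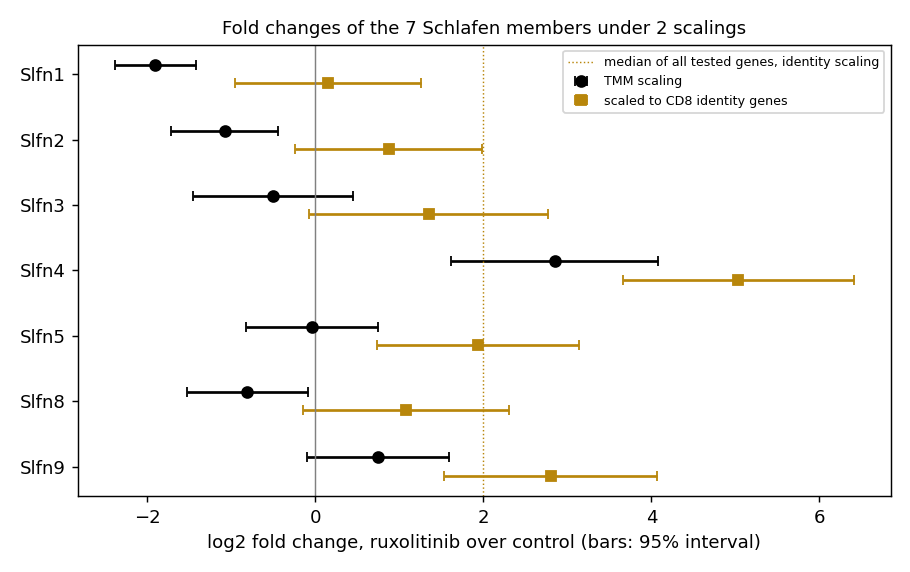
Log2 fold change of each member, ruxolitinib over control, with its 95% interval, under TMM scaling (circles) and relative to the CD8 identity genes (squares); the dotted line is the median of all tested genes under the second scaling. Slfn1 and Slfn2 lie below 0 with TMM scaling and have intervals across 0 relative to the identity genes, while Slfn4 lies above 0 under both.

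The promoters of the members differed in the short motifs they hold. RefSeq windows of GRCm38.p6, from 250 bases before to 50 bases after the start site, were found for all 7 members. The core of the interferon-stimulated response element, searched on both strands as GAAA and GAAA with any 2 bases between them, was in the windows of 3 members, Slfn5, Slfn8 and Slfn9, and in 3.99% of 27025 genes with a window. These 3 are the listed long members, and none of them was called under TMM scaling. Relative to the CD8 identity genes Slfn5 and Slfn9 were called higher. Slfn14, a long member outside the list, held no such core in its window. The stretches of Slfn5, Slfn8 and Slfn9 that hold the core are shown 5′ to 3′ on the gene's strand, with the match in capitals. They show how alike the Slfn8 and Slfn9 promoters are:
Slfn5 (chr11:82951912-82951991, plus strand): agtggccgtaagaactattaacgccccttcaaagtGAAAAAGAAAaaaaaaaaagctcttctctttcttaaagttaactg
Slfn8 (chr11:83020814-83020893, minus strand): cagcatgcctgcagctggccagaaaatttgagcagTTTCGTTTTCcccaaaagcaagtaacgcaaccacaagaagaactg
Slfn9 (chr11:82991831-82991910, minus strand): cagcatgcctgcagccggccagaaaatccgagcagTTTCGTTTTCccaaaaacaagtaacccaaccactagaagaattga
In Slfn5 the match begins 155 bases before the RefSeq start site and runs into a row of the base a. It lies inside the deposited gene, which starts at 82951349. In Slfn8 and Slfn9 the match reads on the opposite strand and begins 48 and 45 bases before the start site, or 136 bases before another start site of Slfn8. Their whole windows were 80.5% identical, and no other pair of members exceeded 48.8%.

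Slfn1, Slfn2, Slfn3 and Slfn4 had no such match in these windows. All 4 held the letters ACTTCCTGG, which contain a core bound by ETS factors, a family that includes PU.1 of myeloid cells and ETS1 of T cells. These letters were chosen after the sequences had been read, and 0.999% of all genes have them in their window on either strand. They are shown in capitals at their place 42 to 74 bases before the start site, since they are what the short and intermediate members share whether they fell, rose or were not called:
Slfn1 (chr11:83116710-83116789, plus strand): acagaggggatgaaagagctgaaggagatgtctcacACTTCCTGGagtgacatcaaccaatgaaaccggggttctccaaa
Slfn2 (chr11:83065021-83065100, plus strand): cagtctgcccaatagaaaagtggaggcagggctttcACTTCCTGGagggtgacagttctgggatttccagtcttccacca
Slfn3 (chr11:83191250-83191329, plus strand): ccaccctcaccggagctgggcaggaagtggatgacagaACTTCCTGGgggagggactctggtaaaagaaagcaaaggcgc
Slfn4 (chr11:83175077-83175156, plus strand): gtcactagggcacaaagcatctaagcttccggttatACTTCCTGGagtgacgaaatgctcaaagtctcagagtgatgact
No member held both these letters and the interferon element. The shorter string TTCCTGG inside them is more common, in 11.6% of all genes, and was in 5 of the 7 members: these 4 and Slfn5. In Slfn5 it begins 88 bases before the RefSeq start site, also inside the deposited gene, and does not overlap the interferon element. Slfn14 held TTCCTGG too, so this string does not separate the short and intermediate members from the long ones. The GAS element of interferon gamma responses, searched as TTCNNNGAA, was in 0 of 7 members' windows and in 9.55% of all genes. These matches are of letters only, and the windows do not reach distant elements.

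Closely related copies limit how well reads could be given to 1 member. In GENCODE M21 the coding sequences of Slfn8 and Slfn9 are each 2733 bases long and 92.7% identical, and those of Slfn3 and Slfn4 are 92.7% identical over 1788 aligned bases. Slfn1 and Slfn2 have coding sequences of 1014 and 1137 bases that are 71.7% identical over 1005 aligned bases. Of all 50-base words in a gene's transcripts, 14.6% for Slfn8 and 11.2% for Slfn9 also occur in another Schlafen gene, mostly the pseudogene Slfn10-ps. For Slfn4 the share is 8.16% and for Slfn3 7.39%, for Slfn2 4.27% and for Slfn1 0.606%, and for Slfn5 it is 0. Over 100-base words it is 3.71% or less for every member. Values of Slfn3, Slfn4, Slfn8 and Slfn9 are uncertain to the extent that such reads were split between copies. Read length and the handling of reads that match several genes were not given in the sources used here. Gm20234, an antisense gene that overlaps Slfn2, had 9 to 24 reads in ruxolitinib pools and 34 to 80 in control pools, against 1605 to 2545 and 2866 to 5790 reads of Slfn2. Its log2 fold change was -1.68 ± 0.51 (adjusted p = 0.0181), and without the strand setting its reads cannot be told from those of Slfn2.

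The 7 members lie within 264 kb of chromosome 11, from the start of Slfn5 at 82951349 to the end of Slfn3 at 83215154. The genes Slfn4 and Slfn3 are next to each other, and so are Slfn9 and Slfn8. Of the other genes with a Schlafen name, the one that counts most for the family's total is Slfn14, a long member at 83275110 to 83286726. Mutations of its human counterpart affect platelets, and in mice it is a gene of red cell development. Slfn14 had 76.2, 72.3 and 34.4 CPM in ruxolitinib pools, against 0.222, 0.0654 and 0 CPM in control pools, where it rested on 4, 1 and 0 reads. The log2 fold change was 9.13 ± 0.61 (adjusted p = 1.63e-05). The summed level of 13 red cell genes was 245691, 198779 and 125336 CPM in the same ruxolitinib pools, against 1904, 1868 and 2694 CPM in controls. All 13 rose, beside 29.9% of all genes tested. The share of red cells in the Slfn14 value was not tested. With ruxolitinib Slfn14 reached 16.4 ± 6.23 CPM per kb, the level of Slfn1 within the spread between pools. The 7 listed members together had 219, 185 and 219 CPM in ruxolitinib pools, against 444, 490 and 304 CPM in control pools. The pseudogene Slfn10-ps had 16, 3 and 28 reads with ruxolitinib and 4, 2 and 0 in controls and was left out by the filter. Slfn5os, antisense to Slfn5, had 0 reads in all 6 libraries, which allows up to 0.228 CPM in the library with the fewest scaled reads, and Slfnl1 had 1 read in all.

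**Figure D4:**
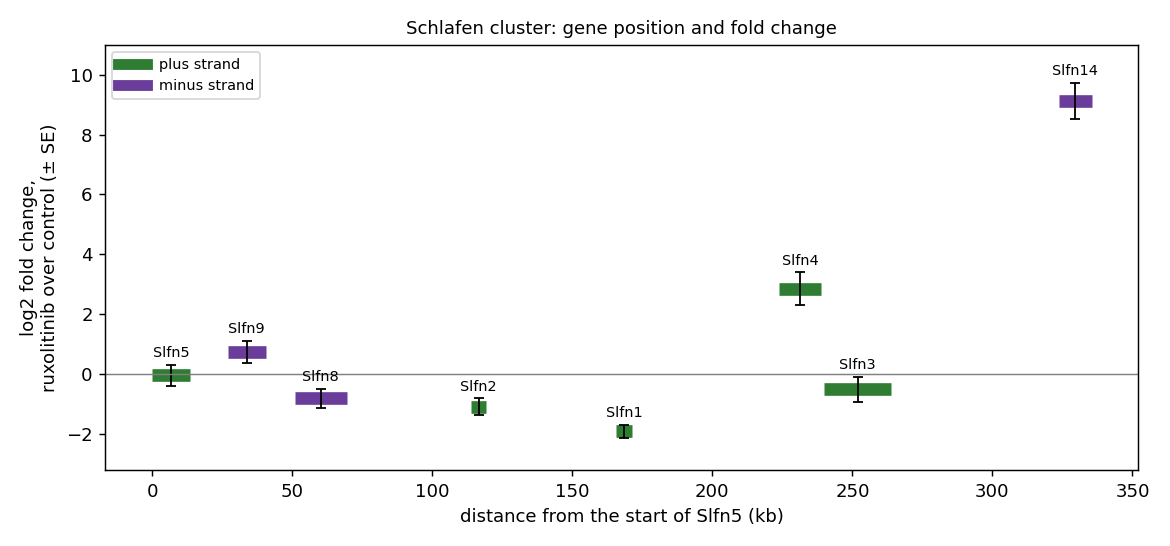
The Schlafen cluster, with each gene drawn as a bar over its length at its log2 fold change, ruxolitinib over control (± SE), against its distance from the start of Slfn5 in kb, coloured by strand. Neighbours differ in value, as with Slfn4 at 2.85 and Slfn3 at -0.50, and Slfn14 at the far end stands at 9.13.

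The interferon pathway, which induces several Schlafen genes, was measured in the same libraries. Of all genes 25.3% fell and 29.9% rose. Of 14 genes of interferon signalling, 7 fell and 3 rose, while 4 missed the threshold, and the median was -0.51. Relative to the CD8 identity genes 7 of the 14 were higher and 1 lower, with a median of 1.43, beside 2.00 for all genes. Those that fell included the transcription factor gene Irf9 (-1.50 ± 0.24) and the feedback inhibitor genes Usp18 (-3.76 ± 0.34) and Socs1 (-2.36 ± 0.34). The receptor chain genes went both ways: Ifnar2 (1.83 ± 0.24) and Ifngr2 (1.58 ± 0.48) rose, Ifngr1 (-1.18 ± 0.24) fell, and Ifnar1 (0.16 ± 0.18) did not pass. The kinase gene Jak2 (0.91 ± 0.18) rose. Of 30 interferon-stimulated genes outside the family, 24 fell and Rsad2 rose, while 5 missed the threshold, and the median was -2.46. Relative to the CD8 identity genes 9 of the 30 were lower and 6 higher, with a median of -0.54. Under that scaling 0.467% of all genes were lower and 70.5% higher, with a median of 2.00. Ifit1, an antiviral gene, fell by 5.39 ± 0.37 on the log2 scale, and Irf7, a regulator of interferon genes, by 3.28 ± 0.24. Slfn1 (-1.90) and Slfn2 (-1.08) fell by less than the median of that list, a difference that was not tested.

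Because Slfn2 is known for T cell quiescence and for protecting transfer RNA, other genes with these roles were counted too. Of 17 tested quiescence genes 8 rose and 0 fell, while 9 missed the threshold, and the median was 0.52. Of all genes 55.2% were called, 29.9% higher and 25.3% lower, with a median of 0.03. Relative to the CD8 identity genes all 17 were higher, with a median of 2.50. Under that scaling 70.5% of all genes were higher, with a median of 2.00. Foxo3, a transcription factor gene (2.67 ± 0.36), the mTOR inhibitor genes Tsc1 (1.90 ± 0.42) and Tsc2 (1.31 ± 0.21), and the cell cycle inhibitor gene Cdkn1b (1.22 ± 0.21) rose, while Slfn2 fell in the same libraries. Other marrow cells also express these genes, and their part was not tested. Of 8 genes of transfer RNA cleavage and protection, 2 rose, 3 fell and 3 did not pass, beside 55.2% of all genes called. Relative to the CD8 identity genes 6 of the 8 were higher and 0 lower, so none of the 3 falls remained, where 70.5% of all genes were higher. Ang, which encodes the ribonuclease angiogenin that cuts transfer RNA, rose (3.71 ± 0.66, adjusted p = 0.00123), at 3.81 ± 2.24 CPM with ruxolitinib and 0.282 ± 0.0889 CPM in controls. Its inhibitor gene Rnh1 (-0.68 ± 0.22) and the transfer RNA methyltransferase gene Nsun2 (-1.37 ± 0.27) fell. Relative to the CD8 identity genes Nsun2 had a value of 0.51.

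The other cell marker lists moved as follows, where 29.9% of all genes rose and 25.3% fell. Of 16 monocyte and macrophage genes 15 rose and 1 fell (median 3.11), with the smallest p for Cd163 (4.86 ± 0.31), the haemoglobin scavenger receptor gene. Of 15 granulocyte genes 11 rose, 1 fell and 3 did not pass (median 2.39), with the smallest p for the growth factor receptor gene Csf3r (4.28 ± 0.53). Of 14 genes of B cells and plasma cells 13 rose (median 4.49), and Ms4a1, Pax5 and Igll1 had 0 reads in all control pools. Of 16 dendritic cell genes 9 rose and 3 fell (median 0.79), with Siglech and Flt3 at 0 reads in controls. Of 9 stromal and endothelial genes 8 rose (median 4.07), and of 6 platelet genes 4 rose and 0 fell (median 1.58). Of 5 natural killer cell genes 2 rose and 2 fell (median -0.21). Tyrobp (2.58 ± 0.26) and Fcer1g (2.11 ± 0.24) rose, while Klra7 (-4.09 ± 0.84) and Klre1 (-3.42 ± 0.50) fell.

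**Figure D5:**
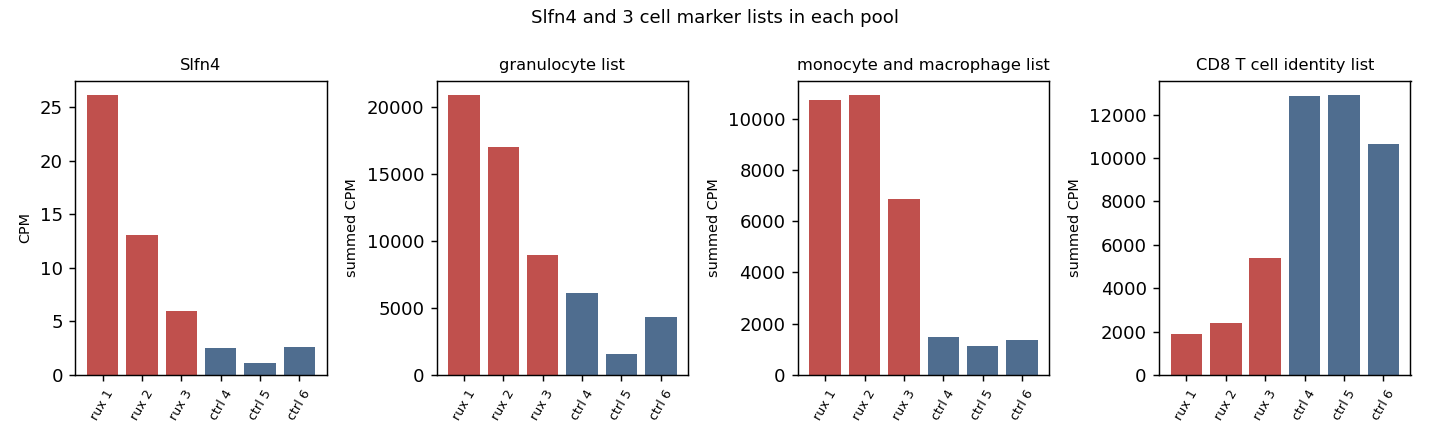
Slfn4 in CPM and the summed CPM of the granulocyte, monocyte and macrophage, and CD8 T cell identity lists in each pool (bars from 0; rux, ruxolitinib; ctrl, control). Slfn4 and both myeloid lists are higher in all ruxolitinib pools and lowest among them in pool 3, and the CD8 list runs the other way. Some lists that are not drawn, such as the red cell list, are also lowest among them in pool 3.

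Genes with the profile most like each member across the 6 libraries were found by the root mean square difference of log2 CPM after centring, where 0 is an identical profile, among genes with an established symbol outside the family. Since the group difference dominates such profiles, this mostly finds genes with a similar fold change. Nearest to Slfn1 were Cmss1 (0.121), Cdca7 (0.128) and Zfp296 (0.133), all 3 of which fell. The nearest genes of Slfn2 were Eno1 (0.0678), the glycolytic enolase gene, Kdm8 (0.0708) and Mettl18 (0.0792). Slfn4 had no such close match, with Mtus1 at 0.258, Olfml2b at 0.260 and Arap3 at 0.262. For Slfn14 the nearest was Sox6 (0.149), a regulator gene of red cell development, followed by the red cell genes Dmtn (0.286) and Hemgn (0.305). The nearest genes of the uncalled members were Lpar6 for Slfn3 (0.105), P2ry10b for Slfn5 (0.0886), Tdg for Slfn8 (0.155) and Spata2l for Slfn9 (0.0976).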

How the data were processed

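The authors deposited raw counts per gene, whole numbers that are not normalised. HISAT2 2.0.5 and mm10 are named in the submitters' processing notes. The counting program, strand setting and annotation were not given in the sources used here. The deposited gene length equals the GENCODE M21 exon union for all 11 Schlafen symbols. The test was edgeR's (4.0.16, R 4.3.3): genes kept by filterByExpr, TMM factors, robust glmQLFit and glmQLFTest on treatment group, without covariates. Benjamini-Hochberg adjustment ran over 13480 genes. Alternatives used DESeq2 1.42.0, limma 3.58.1 and other filters and scalings. CPM uses reads in tested genes. Intervals cover the model's error. The fits were tested on simulated data, where they called 31 of 100 changes of 2-fold and 96 of 100 changes of 4-fold. No other genes were changed among the 13221 simulated, and 131 were called in all. In the real comparison 55.2% of genes were called, which sets another cutoff on the raw p. These rates therefore do not carry over to it. The changed genes there were drawn from those above a minimum CPM.

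The members, the 13 gene lists, the naming rule (all members, other Slfn symbols, overlapping genes, leading list genes, 3 nearest genes) and the tests were chosen with earlier results of these data known. Tsc1, Cdkn1b, Ifngr1, Ifngr2, Ifnar1, Jak2, Irf9, Socs1, Rsad2, Rnh1 and Klra7 fall outside that rule and were named after their values were seen. Coding and promoter sequences were aligned with Biopython 1.88, globally, with identity over aligned bases for coding sequence and over all columns for promoters. Motifs and words were matched exactly. Some results are not reported here.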

Additional observations from a re-analysis of the deposited data

How the results depend on the processing

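No paired analysis was possible because the pools are numbered 1 to 3 and 4 to 6, so the groups share no number. Under the 17 alternatives Slfn4 stayed higher and called, between 2.19 and 5.04. Slfn1 and Slfn2 stayed lower and called in all but CD8 identity scaling, from -2.06 to -1.75 and from -1.39 to -0.84. Leaving out 1 pool at a time gave log2 fold changes of -2.06 to -1.75 for Slfn1, -1.32 to -0.84 for Slfn2, -0.71 to -0.0058 for Slfn3, 2.19 to 3.25 for Slfn4, -0.30 to 0.38 for Slfn5, -1.02 to -0.55 for Slfn8 and 0.41 to 0.99 for Slfn9. These fits called 3247 to 4263 genes higher and 2448 to 3769 lower.

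CD8 identity scaling turned Slfn1 (0.16), Slfn2 (0.88), Slfn3 (1.35), Slfn5 (1.94) and Slfn8 (1.08) to positive values, called Slfn9 (2.81), and gave 9502 genes higher and 63 lower, against 4037 and 3407. Of the other genes named by rule, it turned Pf4 (1.30), Pecam1 (1.60) and Nsun2 (0.51), and the medians of the CD8 identity (0.0359), natural killer (1.56), interferon signalling (1.43) and transfer RNA (1.66) lists. Leaving out a pool under this scaling gave -0.32 to 0.55 for Slfn1, 0.62 to 1.14 for Slfn2, 0.99 to 2.03 for Slfn3, 4.03 to 5.55 for Slfn4, 1.28 to 2.55 for Slfn5, 0.59 to 1.30 for Slfn8 and 2.39 to 3.16 for Slfn9, with 7105 to 11440 genes higher and 32 to 87 lower (39 without ruxolitinib pool 2, 41 without control pool 5). Without ruxolitinib pool 3 Slfn2 (adjusted p = 0.00359), Slfn3 (1.65, 0.0266) and Slfn8 (0.0139) passed, and without control pool 6 Slfn3 did (0.0309). Slfn5 no longer passed without ruxolitinib pool 1 (0.0910) or control pools 4 (1.75, adjusted p = 0.0547) or 5 (1.68, adjusted p = 0.0681).

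Slfn8 passed with protein-coding genes alone (-0.84), no filter (-0.84), DESeq2 (-0.79), limma-voom (-0.85) and its quality weights (-1.04), and without ruxolitinib pool 3 or control pool 6. Slfn5 was positive with total counts (0.0053), limma-voom (0.0101) and quality weights (0.30). Pf4, a platelet gene at -0.63 with TMM scaling (adjusted p = 0.261), turned with quality weights (0.19), and leaving out 1 pool gave -0.92 to 0.19, positive without control pool 6. The natural killer median turned (0.96) where 3 libraries had to reach 1 CPM. Slfn10-ps, with no filter, was at 3.04 (adjusted p = 0.00781). The cause of these shifts was not tested. A length alternative from protein sequences was not run. The members rest on 17 to 5790 reads per library, and Slfn3 and control Slfn4 on 17 to 97. Small changes in those 2 could not be detected at this depth. The SEs of Slfn5 (0.35), Slfn8 (0.32) and Slfn9 (0.38) were close to that of Slfn3 (0.42), so small changes there could be missed too.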

Other observations

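Genes around the Schlafen cluster had values of both signs. Rffl, a ubiquitin ligase gene upstream of Slfn5, rose (4.04 ± 0.39, adjusted p = 5.29e-05), with 395 to 694 reads in ruxolitinib pools and 22 to 58 in control pools. Nle1, a ribosome assembly gene between Rffl and Slfn5, fell (-1.19 ± 0.23, adjusted p = 0.00187). Between Slfn3 and Slfn14 the transcribed pseudogene Gm11427 rose (2.76 ± 0.30), while the overlapping transcript AI662270 fell (-0.91 ± 0.24), with 1061 to 1199 reads in ruxolitinib pools and 2168 to 3161 in control pools. On the far side of Slfn14 the adaptor gene Ap2b1 (0.45 ± 0.27) did not pass. These neighbours were chosen after their values were seen.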
